A study of Rattus norvegicus with 9 samples.

Results

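The 8 genes described here are astrocyte genes and the glial glutamate transporters: Slc1a3, Slc1a2, Glul, Aqp4, Gja1, Gfap, S100b and Aldoc. Their members on the array were the probe sets whose only gene symbol in the platform annotation was one of these genes. They came to 17 of the 15866 probe sets that were not controls, and to 8 of the 10412 genes with a probe set of 1 symbol. A filter that kept the 9520 probe sets with the highest mean, at a mean log2 of at least 3.22, kept 15 of the 17. The 2 that it left out were a second Slc1a2 probe set (1369694_at, log2 2.69 to 2.96) and another Gja1 probe set (1369639_at, log2 2.02 to 2.13). Where a gene had several probe sets, the one with the highest mean is called its main probe set, and levels are never compared between probe sets.

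The samples were prefrontal cortex of 9 male rats of the inbred Lewis strain. Total RNA of each was put on its own Affymetrix array, and the values are log2 expression. All 9 rats form 1 group that received no treatment; they weighed 200 to 250 g, were housed singly and came from an experiment on 20 rats. Tissue was taken 12 days after behavioural testing, and each rat carries a value for acoustic startle, locomotion, plus maze and sugar feeding, with no unit in the labels. The plus maze is in the labels of each rat but not among the tests that the design text names. The question the design implies is whether expression varied with behaviour among untreated rats. With 1 array per animal, the spread holds both animal and technical differences, and the value of a single rat has no error of its own.

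Astrocytes clear glutamate from the space around synapses. Slc1a3 encodes the transporter GLAST and Slc1a2 the transporter GLT-1, the main carriers of this uptake, and Glul encodes glutamine synthetase, which turns the glutamate taken up into glutamine that is returned to neurons. Aqp4 is the water channel of the astrocyte endfeet on blood vessels, Gja1 (connexin 43) forms gap junctions that couple astrocytes, Gfap is an intermediate filament protein, S100b a calcium-binding protein and Aldoc the brain form of the glycolytic enzyme aldolase. In a piece of tissue, fewer astrocytes and less RNA per astrocyte cannot be told apart.

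The arrays had medians of log2 4.11 to 4.28, and the lowest correlation between any pair of arrays was 0.989. Rats 8 and 9 stood apart from the others over the whole table: the first principal component held 49.6% of the variance and placed them at 35.6 and 30.2, against -12.1 to -1.62 for the other 7. No scan date, slide or batch is in the sources used here, so whether these arrays were handled differently was not tested, and results are given with all 9 rats and with the other 7. All 15 of the neuron markers on the array and 25 of 29 further astrocyte markers passed the filter, beside 6793 of the 10412 genes. So did 9 of 12 meningeal fibroblast markers and all 3 red blood cell genes on the array. Passing means only a mean log2 of at least 3.22 and does not show which cells the tissue held.

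Upstream sequences of 3 genes are shown because Slc1a3 and Gja1 had the highest correlation among the 28 pairs of the 8 genes, and Gfap is set beside them as a gene that had no such correlation with either (r = -0.452 with Slc1a3 and -0.273 with Gja1 over 9 rats, 0.0684 and 0.177 without rat 3). The sequences come from RefSeq (GRCr8), which held a window for all 8 genes, and they run 5′ to 3′ on the strand of the gene up to its annotated start. Slc1a3 lies on the minus strand (chr2:59557809-59558058), Gfap on the minus strand (chr10:88361662-88361911) and Gja1 on the plus strand (chr20:36302314-36302489). The Gja1 stretch is 176 bases long, since the last 74 bases of its 250-base window lie inside the annotated gene. Capitals mark a match to 1 of the motifs listed after the sequences.
Slc1a3: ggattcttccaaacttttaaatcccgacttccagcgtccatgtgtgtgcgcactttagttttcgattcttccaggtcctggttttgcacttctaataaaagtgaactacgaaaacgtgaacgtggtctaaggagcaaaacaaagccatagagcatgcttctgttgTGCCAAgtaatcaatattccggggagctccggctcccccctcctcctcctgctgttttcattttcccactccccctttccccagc
Gja1: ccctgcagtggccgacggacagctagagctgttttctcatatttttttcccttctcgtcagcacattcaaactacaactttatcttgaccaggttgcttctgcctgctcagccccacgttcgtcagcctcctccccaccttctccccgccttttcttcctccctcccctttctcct
Gfap: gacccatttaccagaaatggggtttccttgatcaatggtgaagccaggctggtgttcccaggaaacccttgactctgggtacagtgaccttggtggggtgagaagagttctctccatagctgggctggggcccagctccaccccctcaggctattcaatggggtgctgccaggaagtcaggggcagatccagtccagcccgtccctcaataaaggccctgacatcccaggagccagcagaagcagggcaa
Both strands of the 250 bases before the start were searched for 7 motifs. They were TGANTCA for AP-1, TATAAA for the TATA box, TTCNNNGAA for STAT factors, TTGGCA for the core of an NFI site, TGACGTCA for CRE, CCAAT for the CCAAT box and GGGCGG for the GC box. The reverse complement of the NFI core can share letters with the CCAAT box. In the Slc1a3 window the 1 match was TGCCAA, the NFI core read on the other strand, at 85 to 80 bases before the start, and 12% of the 33469 windows in the table held such a match. The Gja1 window held 1 AP-1 match, TGAGTCA, at 58 to 52 bases before the transcript start; it lies inside the annotated gene and so is not in the stretch shown, and 6.34% of windows held one. None of the motifs was found in the Gfap window. The share of all windows with a match was 12.9% for TATAAA, 7.67% for the STAT letters, 1.59% for CRE, 34% for CCAAT and 30.5% for the GC box. Slc1a3 and Gja1 shared no match among these motifs, which says only that these letters were not in both windows.

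Slc1a3 was read at a high level in all 9 rats on its main probe set (1368565_at). The log2 values of rats 1 to 9 were 11.15, 11.31, 11.83, 11.24, 11.19, 11.40, 11.10, 11.04 and 10.91, with a mean of 11.24 ± 0.26 (SD, n = 9). Rat 3 lay 0.42 above the next rat and 0.66 above the mean of the other 8, a 1.58-fold difference, and rats 8 and 9 were the lowest. From the lowest to the highest rat the span was 1.89-fold, and 74.3% of the 6793 genes tested had a smaller SD over the 9 rats. The median SD of all genes was 0.19.

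Slc1a2, known as the dominant glutamate transporter of the forebrain, was read close to the filter. Its main probe set (1369693_a_at) ranged from log2 2.92 in rat 7 over a median of 3.92 to 4.63 in rat 9 (mean 3.92 ± 0.60, SD, n = 9). Rats 9, 3 and 6 were the high ones and rats 7, 5 and 4 the low ones, and 98.1% of genes had a smaller SD. The low reading is that of this probe set, and no amount of GLT-1 RNA in the tissue follows from it.

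Glul, which completes the glutamate cycle on the glial side, was steadier. Its main probe set (1367632_at) ranged from log2 12.35 over a median of 12.44 to 12.93 (mean 12.51 ± 0.18, SD, n = 9). Rat 3 was again the highest, 0.29 above the next rat, while the other 8 rats lay between 12.35 and 12.64. The main probe sets of 4 of the 8 genes had their highest value in rat 3, namely Slc1a3, Glul, Gja1 and Aldoc.

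The water channel and the gap junction protein differed in how far they varied. The main Aqp4 probe set (1372190_at) ranged from log2 9.79 in rat 9 over a median of 10.37 to 10.69 in rat 6 (mean 10.30 ± 0.28, SD, n = 9), a 1.86-fold span. Rats 8 and 9 were below all other rats. The main Gja1 probe set (1372002_at) stayed between log2 11.81 and 12.27 with a median of 11.97 (mean 12.00 ± 0.15, SD, n = 9), a 1.37-fold span, with rats 3 and 6 at the top.

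Among the remaining astrocyte genes Gfap varied most and S100b least. Gfap (1368353_at), the filament protein known to increase in reactive astrocytes, ranged from log2 9.15 in rat 3 over a median of 9.65 to 10.34 in rat 8 (mean 9.69 ± 0.35, SD, n = 9), a 2.27-fold span. Rat 3, the highest rat for 4 of the other genes, was thus the lowest for Gfap, 0.61 below the mean of the others. S100b (1386903_at) ranged from log2 12.93 over a median of 13.19 to 13.30 (mean 13.17 ± 0.11, SD, n = 9), and only 19.2% of genes had a smaller SD. Aldoc (1386998_at) ranged from log2 11.58 in rat 7 over a median of 11.85 to 12.34 in rat 3 (mean 11.90 ± 0.21, SD, n = 9), and rat 3 lay 0.32 above the next rat.

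**Figure D1:**
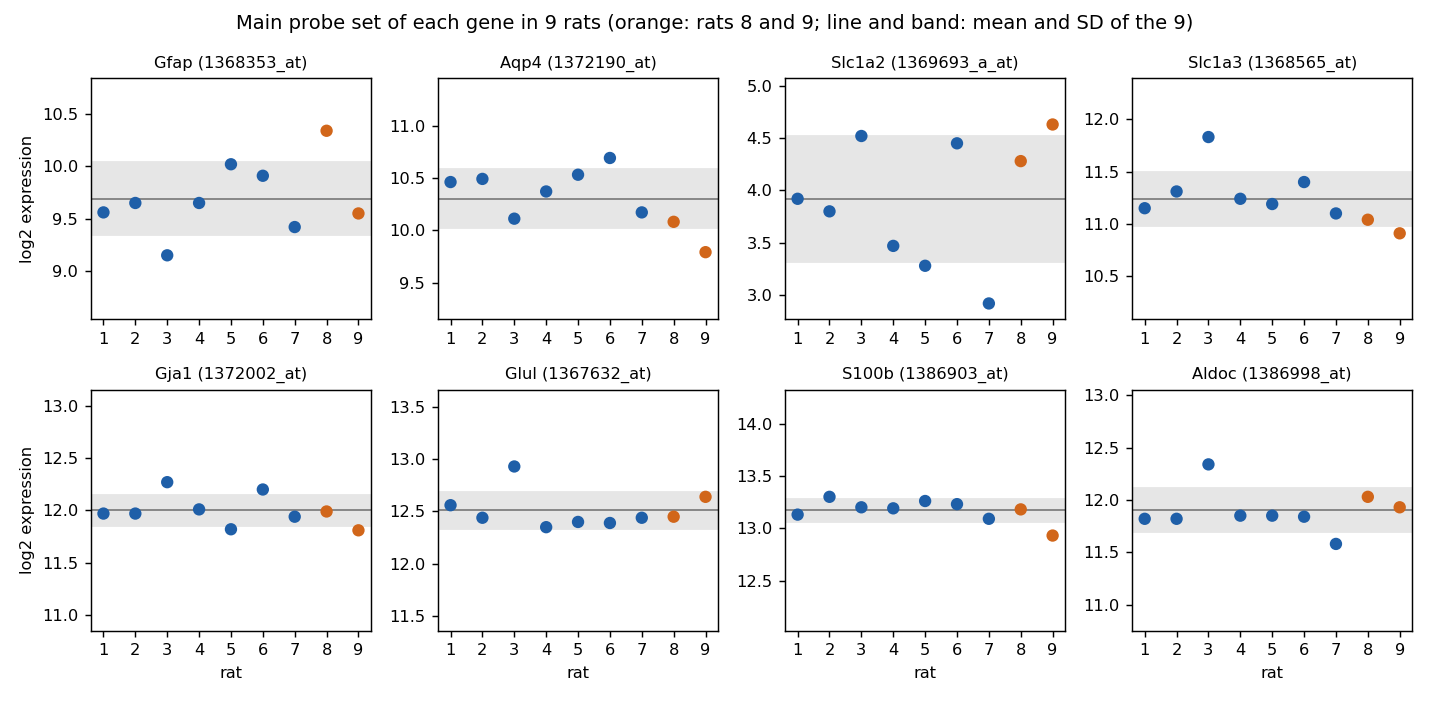
Log2 expression (y axis) of the main probe set of each of the 8 genes against rat number (x axis, no order implied); each point is 1 array, orange marks rats 8 and 9, and the line and band are the mean and SD of the 9. All panels span the same log2 range, so that the wide spread of Slc1a2 (SD 0.60) and the narrow spread of S100b (SD 0.11) can be compared by eye, and rat 3 is the highest point for Slc1a3, Gja1, Glul and Aldoc.

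Probe sets of 1 gene gave differing readings of rats 8 and 9. On the main probe set of Slc1a3 these rats were lower than the other 7 (mean difference -0.34), and on 1371130_at they were lower too (-0.41), while on 1388064_a_at they were higher by 0.82, or 1.77-fold. On that last probe set rats 8 and 9 stood at log2 8.90 and 8.95 and the other 7 between 7.58 and 8.65. Each of these 3 probe sets thus placed rats 8 and 9 outside the range of the other 7, but not on the same side.

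Aqp4 differed more. The main Aqp4 probe set had rats 8 and 9 lower (difference -0.47), whereas 1387397_at had them higher by 0.51. On 1368981_at they stood at log2 6.92 and 6.39 against 4.48 to 5.07 in the other 7, a difference of 1.98, or 3.96-fold. The last 2 probe sets are thus opposite in direction to the main one for the same pair of animals.

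For glutamine synthetase and connexin 43 the main probe sets did not separate rats 8 and 9, while other probe sets placed them higher. For Glul the difference was 0.04 on the main probe set, 1.02 (2.03-fold) on 1386870_at and 1.76 (3.38-fold) on 1367633_at, although the annotation gives all 3 the same source sequence. On 1367633_at rats 8 and 9 stood at log2 10.80 and 10.75, and the other 7 at 8.67 to 9.51. For Gja1 the difference was -0.12 on the main probe set and 1.30 (2.47-fold) on 1369640_at, where rat 2 at log2 6.09 came close to rats 8 and 9 at 6.47 and 6.33.

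Counted over the 15 probe sets, both rats were above the other 7 in 6 and below them in 3, and the ranges overlapped in 6. Over all 9520 probe sets, both rats were above the other 7 in 9.33% and below in 17.6%. The 6 that were higher were all among the 7 probe sets that were not the main one of their gene. By gene and main probe set, none of the 8 was higher and 2 (Aqp4 and Slc1a3) were lower, beside 6.58% and 19.7% of all genes. All 4 genes with several probe sets kept had differences that lay over 1 log2 apart, by 2.45 for Aqp4, 1.72 for Glul, 1.43 for Gja1 and 1.23 for Slc1a3, a limit chosen after the values were seen. Of the 890 genes with several probe sets kept, 17.5% had such a gap. The positions of the probes on the transcripts are not in the sources used here, so where on the RNA these readings part was not tested.

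Without rats 8 and 9 the correlation between probe sets of a gene was higher for most pairs, though not for all. That of the main Glul probe set with 1386870_at was 0.48 over 9 rats and 0.868 over 7, and that of Slc1a3 1368565_at with 1388064_a_at was -0.0665 over 9 and 0.695 over 7. For Aqp4 the main probe set and 1387397_at gave -0.619 over 9 and 0.214 over 7, and the main Gja1 probe set with 1369640_at gave -0.179 and 0.166. Over the 10 such pairs the median r was 0.108 with all rats and 0.412 with 7, beside 0.156 and 0.182 over the 1313 pairs of the 890 genes. A pair of Slc1a3, the main probe set with 1371130_at, went the other way, from 0.393 to 0.0886, as did the Glul pair of 1386870_at with 1367633_at, from 0.966 to 0.874. These correlations describe probe sets measured on the same arrays.

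**Figure D2:**
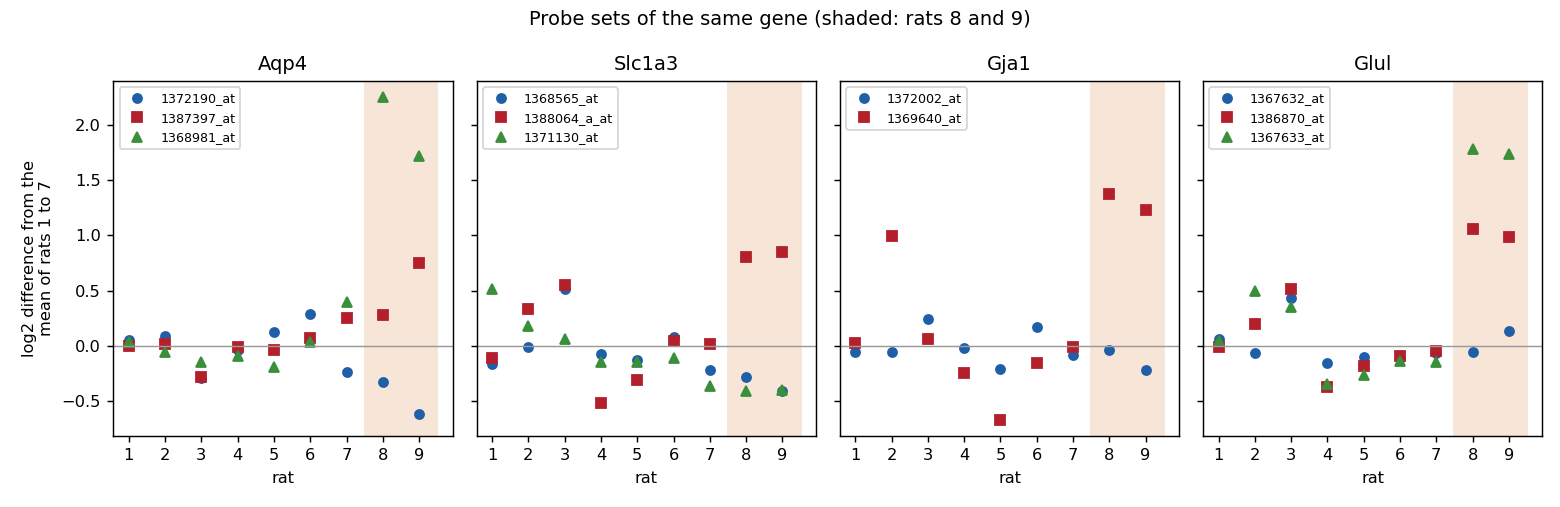
Log2 difference of each rat from the mean of rats 1 to 7 (y axis) against rat number (x axis, no order implied) for the kept probe sets of Aqp4, Slc1a3, Gja1 and Glul; each point is 1 array and colours mark probe sets. In the shaded columns of rats 8 and 9 the probe sets of each gene spread apart, up to 1.98 above and 0.47 below the other 7 on average for Aqp4.

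Among the 28 pairs of the 8 genes the closest was Slc1a3 with Gja1. Their main probe sets had r = 0.843 (exact p = 0.00271 from a permutation test over all orders of the rats; adjusted to 0.0759 for 28 pairs) and rho = 0.728 (exact p = 0.0313, adjusted p = 0.344). The correlation was 0.84 in the 7 rats without rats 8 and 9, 0.707 without rat 3, 0.732 without rats 3, 8 and 9, and 0.576 with the 2 most extreme rats for Slc1a3 left out. The direction was the same in each of these sets of rats, but the pair did not pass after adjustment. Rats 3 and 6 were the highest for both genes and rat 9 the lowest for both.

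Another 3 pairs had an exact p under 0.05 before adjustment, and none passed after it. Aqp4 and S100b had r = 0.78 (exact p = 0.0124, adjusted p = 0.174) and rho = 0.717 (exact p = 0.0369, adjusted p = 0.344), with r = 0.56 over the 7 rats, 0.837 without rat 3 and 0.505 with the 2 most extreme rats for Aqp4 left out. Slc1a2 and Aldoc had r = 0.7 (exact p = 0.0246, adjusted p = 0.23) and rho = 0.611 (exact p = 0.0869, adjusted p = 0.448), with 0.73 over the 7 rats, 0.733 without rat 3 and 0.606 with the 2 most extreme rats for Slc1a2 left out. Glul and Aldoc had r = 0.76 (exact p = 0.0376, adjusted p = 0.263) but rho = 0.37 (exact p = 0.324, adjusted p = 0.648), 0.83 over the 7 rats, 0.186 without rat 3 and -0.0667 with the 2 most extreme rats for Glul left out. The last relation rested on rat 3, the highest animal for both genes.

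Without rat 3, other pairs changed in size or sign. Slc1a3 and Glul had r = 0.526 over 9 rats (exact p = 0.152, rho = -0.234 with exact p = 0.54) and -0.71 without rat 3. Slc1a3 and Aldoc went from 0.607 (exact p = 0.106, rho = 0.0586 with exact p = 0.887) to -0.229, and Aqp4 and Slc1a3 from 0.29 (exact p = 0.458, rho = 0.567 with exact p = 0.121) to 0.93. Over the 7 rats without rats 8 and 9, r was 0.799, 0.927 and -0.326 in the same order. Without rats 3, 8 and 9 it was -0.447, 0.58 and 0.793. The uptake gene Slc1a3 thus shared the high value of rat 3 with Glul and Aldoc. Among the other 8 rats its main probe set ran with that of Aqp4, and rats 8 and 9 were the lowest on both. Adjusted p for these 3 pairs was 0.392, 0.392 and 0.639 over the 28 pairs.

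Gfap did not run with the group as a whole. Its correlation with Glul was -0.643 (exact p = 0.0722, adjusted p = 0.392; rho = -0.55, exact p = 0.128), -0.774 over the 7 rats and -0.347 without rat 3. Its correlation with Slc1a3 was -0.452 (exact p = 0.221, adjusted p = 0.516; rho = -0.0921, exact p = 0.819) and 0.0684 without rat 3, and that with Gja1 -0.273 (exact p = 0.48, adjusted p = 0.639; rho = 0.0042, exact p = 0.995) and 0.177 without rat 3. With Aqp4 it had 0.244 over 9 rats (exact p = 0.529, adjusted p = 0.645; rho = 0.402, exact p = 0.283) and 0.884 over the 7. Rat 8, left out there, had the highest Gfap and a low Aqp4.

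Over all 28 pairs the median r was 0.267, with 19 positive and 9 negative values, and over the 7 rats it was 0.3 with 18 positive. The median over all 23069028 pairs of genes tested was 0.0698 with 9 rats and 0.0231 with 7. A correlation of at least 0.5 was reached by 9 pairs (32.1%) beside 16.5% of all pairs, and over the 7 rats by 13 pairs (46.4%) beside 16.2%. The 8 genes did not correlate more with each other than with markers of some other cells. Over 9 rats their median r was 0.459 with the microglia and 0.458 with the endothelial markers. It was 0.349 with the pericyte and smooth muscle markers and 0.312 with the red blood cell genes, and lower than 0.267 with the other lists. Over the 7 rats these 4 medians were 0.531, 0.545, 0.367 and 0.685. In the same 7 rats other lists also lay slightly above the 0.3 of the 8 genes. The median was 0.328 with the further astrocyte markers, 0.31 with the astrocyte genes of glutamate, ion and water handling and 0.308 with the oligodendrocyte precursor markers. The pairs share arrays and genes and are not independent.

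**Figure D3:**
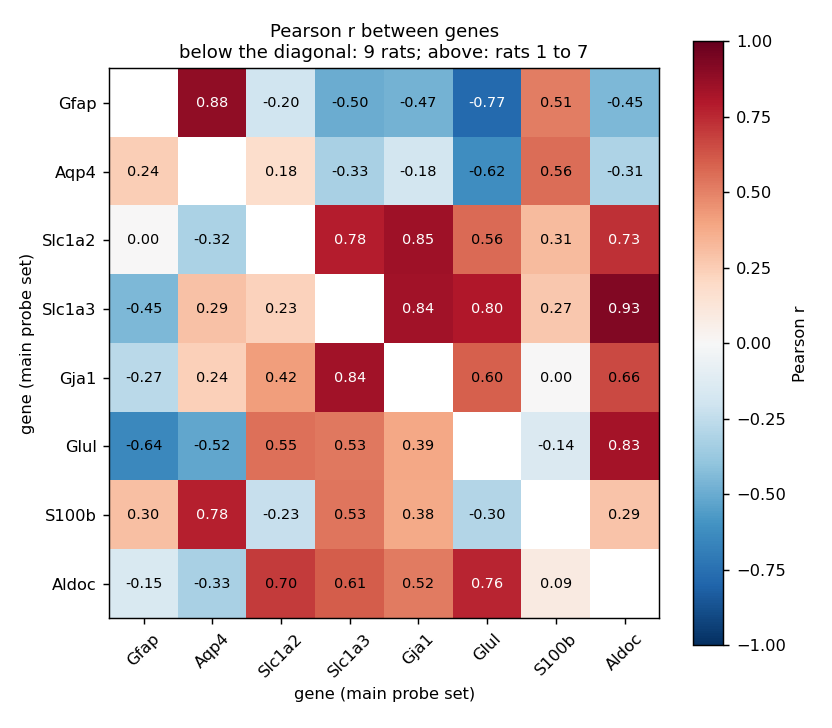
Pearson r (colour, from -1 to 1, with the value printed in each cell) between the main probe sets of the 8 genes; rows and columns are genes, cells below the diagonal use 9 rats and cells above it rats 1 to 7. The block of Slc1a2, Slc1a3, Gja1, Glul and Aldoc is redder over the 7 rats, where Gfap and Aqp4 are blue against Glul (-0.774 and -0.623).

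Startle is a reflex jump to a loud sound, and its values ran from 67.7 in rat 8 to 501 in rat 3. No probe set passed an adjusted p of 0.05 for startle (limma, 0% of 9520). Before adjustment 7.79% of the 6793 genes had a positive slope with a limma p under 0.05 and 4.64% a negative one, and among the 8 genes these were 1 each, Slc1a3 and Gfap. Of the 15 probe sets, 3 (20%) had such a p, beside 13.2% of all probe sets.

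Slc1a3 was higher in rats with a higher startle value, short of the threshold after adjustment. Its slope was 0.18 log2 per SD of startle (SE 0.0673, limma p = 0.0237, limma adjusted p = 0.359), with r = 0.693 (exact p = 0.0328) and rho = 0.717 (exact p = 0.0369). Without rats 1 and 3, whose startle lay most distant from the middle, r was 0.673, and over the 7 rats it was 0.665 (exact p = 0.0808). Leaving out 1 rat moved it between 0.445, without rat 3, and 0.872, without rat 1. Rat 1 had the startle value next to the highest, 458.6, and a Slc1a3 value below the median.

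The other Slc1a3 probe sets did not all repeat this. On 1371130_at the slope was 0.24 (SE 0.068, limma p = 0.00665, limma adjusted p = 0.359), with r = 0.778 (exact p = 0.0128), rho = 0.854 (exact p = 0.0052), 0.669 without rats 1 and 3 and 0.725 over the 7 rats. On 1388064_a_at r was -0.0842 over 9 rats (exact p = 0.825; rho = -0.0667, exact p = 0.88), -0.269 without rats 1 and 3 and 0.539 over 7. The sign of this probe set turned with the rats used, and without rat 8 alone r was 0.242.

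Gfap had the opposite sign. Its slope was -0.23 log2 per SD of startle (SE 0.0914, limma p = 0.0353, limma adjusted p = 0.362), with r = -0.646 (exact p = 0.0586) and rho = -0.427 (exact p = 0.253). Rats 8 and 3, at the ends of the startle range, held the highest and the lowest Gfap value. Without rats 1 and 3 r was -0.394, over the 7 rats -0.478 (exact p = 0.284), and leaving out 1 rat gave -0.816 to -0.441, the last without rat 8.

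For Slc1a2 and Glul the relation depended on the rats included. Slc1a2 had r = 0.389 over 9 rats (exact p = 0.297; rho = 0.417, exact p = 0.27; limma adjusted p = 0.576), 0.261 without rats 1 and 3, and 0.869 over the 7 rats (exact p = 0.0157). Rats 8 and 9 had higher Slc1a2 readings than other rats of similar startle value. Glul had r = 0.608 (exact p = 0.0779; rho = 0.234, exact p = 0.54; limma adjusted p = 0.397), 0.747 over the 7 rats and -0.11 without rats 1 and 3. Aldoc behaved like Glul, with 0.417 (exact p = 0.266; rho = 0, exact p = 1; limma adjusted p = 0.569), 0.718 over the 7 rats and -0.141 without rats 1 and 3. Both rested on rat 3: without it r was 0.233 for Glul and -0.146 for Aldoc.

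Gja1, Aqp4 and S100b complete the account of startle. Gja1 had r = 0.604 (exact p = 0.0838; rho = 0.536, exact p = 0.141; limma adjusted p = 0.408), 0.469 without rats 1 and 3, 0.707 over the 7 rats and 0.351 without rat 3, where its slope went from 0.092 to 0.05 log2 per SD. Aqp4 had r = 0.249 (exact p = 0.516; rho = 0.3, exact p = 0.437; limma adjusted p = 0.745), 0.54 without rats 1 and 3 and -0.0938 over the 7 rats. S100b had r = 0.122 (exact p = 0.765; rho = 0.283, exact p = 0.463; limma adjusted p = 0.905), 0.216 without rats 1 and 3 and -0.0168 over the 7 rats. The main Gja1 probe set kept a positive sign in these sets of rats, while Aqp4 and S100b changed sign when rats 8 and 9 were left out. The other kept probe sets of these genes and of Glul had a negative sign over 9 rats. There r was -0.293 for Gja1 1369640_at, -0.54 for Aqp4 1387397_at and -0.58 for Aqp4 1368981_at. For Glul it was -0.202 on 1386870_at and -0.327 on 1367633_at. Exact p was 0.0937 or higher for each. Over the 7 rats r was 0.252, -0.671, -0.312, 0.637 and 0.561 in the same order.

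Of the 13 marker and pathway lists, 1 passed after adjustment in its relation with startle, that of neurons. The mean of the 15 neuron markers, which ranged from log2 10.39 in rat 3 to 10.71 in rat 7, had r = -0.885 with startle (exact p = 0.00168, adjusted to 0.0218 for the 13 lists) and rho = -0.9 (exact p = 0.00203), -0.897 without rats 1 and 3, -0.859 over the 7 rats and -0.816 without rat 3. Of its 15 genes 2 had a negative slope with a limma p under 0.05, Gad2 (-0.65) and Stmn2 (-0.18), beside 4.64% of all genes. Both had a limma adjusted p of 0.359. Gad2 makes the transmitter GABA and Stmn2 is a neuronal cytoskeleton regulator. Gad2 was read close to the filter limit in most rats, with a range of log2 3.15 to 6.20 and a median of 3.72. The genes of the list did not all share the sign. Slopes were positive for Nefl (0.06), Nefm (0.03), Gad1 (0.02) and Map2 (0.01), and negative for the rest, with Camk2a at -0.32. Snap25 (-0.02) and Tubb3 (-0.01) had small slopes, and the median slope of the 15 was -0.044, beside 0.021 over all genes. The genes that varied most, Gad2 (SD 0.95) and Camk2a (SD 0.73), count most in the list mean. The mean of 25 further astrocyte markers had r = 0.306 (exact p = 0.421, adjusted p = 0.782; rho = 0.267, exact p = 0.493; 0.211 without rats 1 and 3, 0.483 over the 7 rats, -0.163 without rat 3), and that of the 9 endothelial markers 0.618 (exact p = 0.0724, adjusted p = 0.188; rho = 0.567, exact p = 0.121; 0.498 without rats 1 and 3, 0.701 over the 7 rats, 0.301 without rat 3). Another 3 lists had an exact p under 0.05 before adjustment, each with an adjusted p of 0.137. They were the 3 choroid plexus and ependymal markers, with r = 0.69 (exact p = 0.0407; rho = 0.783, exact p = 0.0172; 0.412 without rats 1 and 3, 0.767 over the 7 rats, 0.648 without rat 3), the 5 oligodendrocyte precursor markers, with 0.683 (exact p = 0.0408; rho = 0.733, exact p = 0.0311; 0.638, 0.632 and 0.444 in the same order), and the 9 microglia markers, with 0.678 (exact p = 0.0423; rho = 0.617, exact p = 0.0857; 0.571, 0.751 and 0.421). The astrocyte list thus changed sign without rat 3, while the neuron list kept its sign. Folr1 (log2 3.41 to 3.54) and Foxj1 (3.36 to 3.77), among the choroid plexus and ependymal markers, were read close to the filter limit. All these list means were set against startle after the relations of the 8 genes had been seen. Their part in the relation of Slc1a3 with startle was not tested.

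In the plus maze, a test of how far a rat enters exposed arms, no probe set passed an adjusted p of 0.05 (limma, 0%). Before adjustment 2.8% of genes had a positive slope and 0.515% a negative one, and among the 8 genes Aqp4 alone had a limma p under 0.05. Its slope was 0.20 log2 per SD (SE 0.0711, limma p = 0.0212, limma adjusted p = 0.999), with r = 0.702 (exact p = 0.0351) and rho = 0.672 (exact p = 0.0546), 0.53 without rats 2 and 6 and 0.744 over the 7 rats (exact p = 0.0579). Rats 2 and 6, both with the highest plus maze value of 18.7, had Aqp4 at log2 10.49 and 10.69, and rats 3 and 9, both at 0, had 10.11 and 9.79. The other Aqp4 probe sets had r = -0.188 (exact p = 0.62; rho = 0.0588) and -0.255 (exact p = 0.595; rho = 0.0549). Over the 7 rats their r was 0.274 and 0.0164, so neither repeated the relation of the main probe set over 9 rats, and their sign turned with the rats used. The other 7 genes had limma p-values above 0.05, with r from -0.417 for Glul to 0.545 for S100b.

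Locomotion and sugar feeding gave the fewest relations. For locomotion no probe set passed an adjusted p of 0.05 (limma, 0%), and before adjustment 0.545% of genes had a positive and 1.37% a negative slope, none of them among the 8. The nearest was Slc1a3, with a slope of -0.15 log2 per SD (SE 0.0756, limma p = 0.0744, limma adjusted p = 1), r = -0.579 (exact p = 0.107), rho = -0.6 (exact p = 0.0968), -0.438 without rats 1 and 3 and -0.566 over the 7 rats. Rat 3, with the lowest locomotion value of 536, had the highest Slc1a3, and without this rat r was -0.321. For sugar feeding no probe set passed either (0%), 0.765% of genes had a positive and 0.589% a negative slope before adjustment, and none of the 8 was among them, with slopes from -0.06 for Aqp4 and Slc1a3 to 0.05 for Gfap. In all, 32 relations of the 8 main probe sets with the 4 measures were computed, and none passed the limma test after adjustment over the 9520 probe sets.

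**Figure D4:**
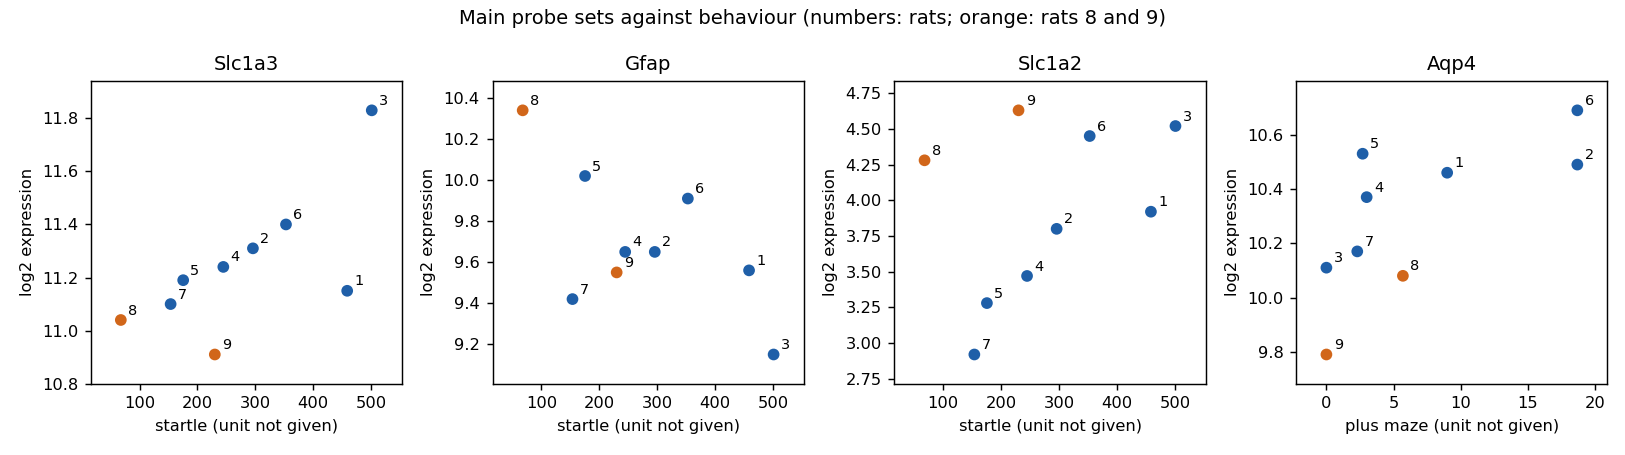
Log2 expression of the main probe sets of Slc1a3, Gfap and Slc1a2 (y axis) against startle, and of Aqp4 against plus maze (x axes, units not given in the labels); each point is 1 rat, numbered, with rats 8 and 9 in orange. The highest Slc1a3 and the highest startle value are both those of rat 3, and rats 1 and 9 have less Slc1a3 than rats of similar startle; in the Slc1a2 panel rats 8 and 9 lie apart from the line that the other 7 form (r = 0.389 with all 9, 0.869 with 7).

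Other genes of astrocyte glutamate, ion and water handling were set against startle in the same fit. Of 24 such genes listed, 19 were on the array and 14 passed the filter, and 0 of the 14 had a startle slope with a limma p under 0.05 in either direction. Slc4a4, a bicarbonate transporter, had a positive plus maze slope (0.09, limma adjusted p = 0.999). In rats 8 and 9, 3 of the 14 were higher than in all other rats and none was lower. Over all genes the shares were 6.58% and 19.7%. The 3 were Slc38a3, a glutamine exporter, by 0.22, Atp1b2, a sodium pump subunit, by 0.93 and Dtna by 0.40. The median startle slope of the 14 was -0.010, beside 0.021 over all genes and 0.089 over the 8 genes.

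Of 37 further astrocyte markers, 29 were on the array and 25 passed the filter. A positive startle slope with a limma p under 0.05 was found for 5 of the 25 and a negative one for none. Over all genes the shares were 7.79% and 4.64%. The median slope of the 25 was 0.006. The 3 with the smallest p were S1pr1, a sphingosine phosphate receptor (0.19), F3, tissue factor (0.19), and Plpp3, a lipid phosphatase (0.23), each with a limma adjusted p of 0.359. Rats 8 and 9 were higher than the other 7 for 3 of the 25 (Ttyh1 by 1.37, Apoe by 0.41 and Gpr37l1 by 0.38) and lower for 3 (differences of -0.72 for Plpp3, -0.34 for Pygb and -0.29 for Scg3). That is 3 of 25 on either side, beside 6.58% of all genes above and 19.7% below.

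Of 22 genes of reactive astrocytes 19 were on the array and only 7 passed the filter. Among the 7, Stat3, the transcription factor that drives much of the reactive response, had a positive sugar feeding slope (0.15, limma adjusted p = 1), Il6st, a receptor subunit upstream of it, had a positive plus maze slope (0.11, limma adjusted p = 0.999) and Cp a positive startle slope (0.08, limma adjusted p = 0.371). On the neuronal side of glutamate handling, 8 of 12 genes were tested. Slc17a7, which loads glutamate into synaptic vesicles, had a negative startle slope (-0.27, limma adjusted p = 0.359), opposite in sign to that of Slc1a3, and Got2 a positive plus maze slope (0.11, limma adjusted p = 0.999). Rats 8 and 9 were lower than all others for 4 of these 8, beside 19.7% of all genes. The differences were -1.25 for Arl6ip5, -1.01 for Got1, -0.63 for Slc38a2 and -0.29 for the neuronal glutamate transporter Slc1a1.

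The main probe set of Slc1a3 varied together with the endothelial markers. Its r with the other kept Slc1a3 probe sets was -0.0665 for 1388064_a_at and 0.393 for 1371130_at over 9 rats. Relations of those probe sets with the marker lists are not given here. The mean of the 9 endothelial markers that passed the filter, of 15 listed, was 5.99, 6.09, 6.39, 6.01, 5.98, 6.19, 5.95, 6.03 and 5.83 in rats 1 to 9. Its correlation with Slc1a3 was 0.964 (exact p = 0.000229, adjusted to 0.0119 for the 104 relations of 8 genes with 13 lists) and rho = 0.817 (exact p = 0.0108, adjusted p = 0.14). It was 0.986 over the 7 rats, 0.901 without rat 3, 0.974 without rats 3, 8 and 9 and 0.816 with the 2 most extreme rats of that list left out. Rats 3, 6 and 2 were the highest on both, in that order, and rat 9 the lowest.

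The relation was shared by most of the endothelial genes. Of the 9, 8 had r above 0.5 with Slc1a3, among them the drug efflux pump Abcb1a (0.899), the receptor Flt1 (0.883), the organic anion carrier Slco1a4 (0.879), von Willebrand factor Vwf (0.87) and the tight junction gene Cldn5 (0.844), and the lowest was the glucose carrier Slc2a1 (0.376). Vwf, Flt1 and Esam had low mean readings, at log2 3.66, 3.74 and 4.19, beside a filter limit of 3.22. Cldn5, Slco1a4 and Abcb1a were read higher, at means of 9.26, 8.35 and 6.11. Among the 6784 genes outside the list, 3, with Slc1a3 among them, had an r with the endothelial mean as high as that of Slc1a3, which is 0.0442%, and the median was 0.162. Gja1 had r = 0.916 with the same mean (exact p = 0.000772, adjusted p = 0.0201; rho = 0.895, exact p = 0.00211, adjusted p = 0.073), 0.894 over the 7 rats, 0.859 without rat 3 and 0.816 with the 2 most extreme rats of that list left out. The level of these vessel markers in each rat was thus a measured companion of both genes, and its part in their relation with each other was not tested.

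With the 25 further astrocyte markers, which ranged from 9.00 to 9.27, Slc1a3 had r = 0.808 (exact p = 0.00655, adjusted p = 0.0757; rho = 0.717, exact p = 0.0369, adjusted p = 0.256; r = 0.454 with the 2 most extreme rats of that list left out), 0.928 over the 7 rats and 0.599 without rat 3. With the 5 tested markers of oligodendrocyte precursors it had r = 0.961 (exact p = 0.000116, adjusted p = 0.0119; rho = 0.9, exact p = 0.00203, adjusted p = 0.073), 0.944 over the 7 rats, 0.915 without rat 3 and 0.852 with the 2 most extreme rats of that list left out. Ptprz1, which is among them, is known from astrocytes too. With the 9 microglia markers it had r = 0.922 (exact p = 0.00127, adjusted p = 0.0264; rho = 0.733, exact p = 0.0311, adjusted p = 0.249), 0.946 over the 7 rats, 0.774 without rat 3 and 0.647 with the 2 most extreme rats of that list left out. With the 15 neuron markers the sign was negative, r = -0.771 (exact p = 0.0106, adjusted p = 0.11; rho = -0.717, exact p = 0.0369, adjusted p = 0.256; r = -0.562 with the 2 most extreme rats of that list left out). Other glial and vascular lists did not pass in their relation with Slc1a3. The 14 genes of astrocyte glutamate, ion and water handling had r = 0.324 (exact p = 0.405, adjusted p = 0.641; rho = 0.367, exact p = 0.336), 0.794 over the 7 rats and 0.128 without rat 3. The 10 oligodendrocyte markers had r = 0.262 (exact p = 0.541, adjusted p = 0.771; rho = 0.1, exact p = 0.81) and 0.0141 without rat 3, and the 4 pericyte and smooth muscle markers 0.619 (exact p = 0.0662, adjusted p = 0.314; rho = 0.367, exact p = 0.336) and 0.25 without rat 3. Over 9 rats the relation of Slc1a3 with a list thus passed after adjustment for the endothelial, oligodendrocyte precursor and microglia markers. It did not pass for the astrocyte genes of glutamate, ion and water handling or for the 25 further astrocyte markers. Without rats 3, 8 and 9, r was 0.978 with these handling genes and 0.924 with the further astrocyte markers. In the same rats it was 0.974 with the endothelial, 0.863 with the microglia and 0.767 with the oligodendrocyte precursor markers. The order of the lists thus depended on the rats used, and these differences between lists were not tested.

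Of the 104 relations, 18 had an exact p under 0.05 and 5 passed after adjustment by r, 3 of Slc1a3 and 2 of Gja1. None passed by rho after adjustment. The fifth was Gja1 with the 4 pericyte and smooth muscle markers tested, r = 0.886 (exact p = 0.000601, adjusted p = 0.0201; rho = 0.845, exact p = 0.00621, adjusted p = 0.14), 0.942 over the 7 rats, 0.812 without rat 3 and 0.743 with the 2 most extreme rats of that list left out. Of these pericyte and smooth muscle markers, Abcc9, Myh11 and Pdgfrb had low mean readings, at log2 3.34, 3.73 and 3.87. The filter limit was 3.22, and Acta2 had a mean of 7.61. The other kept Gja1 probe set (1369640_at) had r = -0.179 with the main one over 9 rats. Its relations with the marker lists are not given here. The difference between the endothelial and the astrocyte correlation of Slc1a3 was not itself tested. Whether the balance of cell types in the dissected piece differed between rats was not tested.

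**Figure D5:**
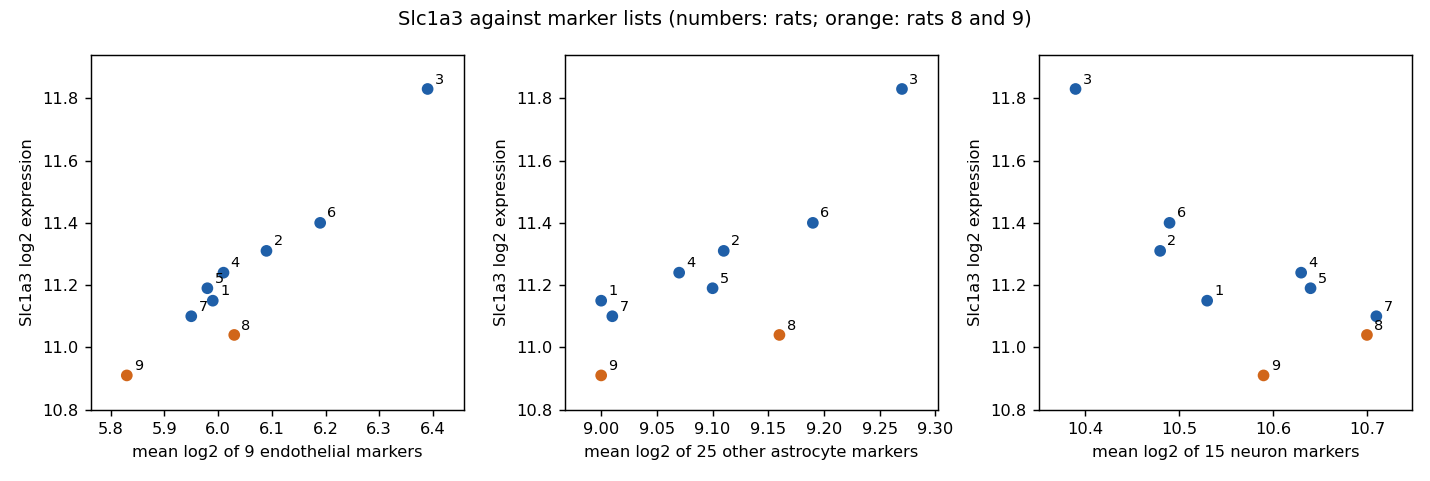
Log2 expression of the main Slc1a3 probe set (y axis) against the mean log2 of 9 endothelial, 25 further astrocyte and 15 neuron markers (x axes); each point is 1 rat, numbered, with rats 8 and 9 in orange. The points run up with the endothelial mean (r = 0.964) and the astrocyte mean (r = 0.808) and down with the neuron mean (r = -0.771), with rat 3 at an end of each panel.

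The 3 genes whose values ran most closely with each of the 8 were all outside this group. Those most like Slc1a3 were Selenop (r = 0.983 over 9 rats and 0.991 over 7), which encodes a selenium carrier protein, Tmem134 (0.98 and 0.97) and Rcbtb1 (0.977 and 0.966). Those most like Gja1 were Kcnip1 (0.952 and 0.941), Tnnt2 (0.951 and 0.941) and the endothelial receptor Flt1 (0.948 and 0.95). Their mean readings were low, at log2 4.14, 3.29 and 3.74. For Aqp4 they were Ifi27 (0.984 and 0.968), Park7 (0.963 and 0.907) and Wdr83os (0.952 and 0.884). These are descriptions chosen from 6792 genes over 9 arrays, without a test.

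For the remaining 5 genes the closest were picked in the same way, without a test. Gls2 (SD 0.10 over 9 rats) and Slc6a9 (SD 0.09), named below, varied little, beside a median SD of 0.19 over all genes. Gls2, a glutaminase, was the gene most like Gfap (0.959 over 9 rats and 0.951 over 7), before Dapk3 (0.944 and 0.89) and Ube2h (0.932 and 0.866). Slc6a9, the glial glycine transporter, was most like Aldoc (0.963 and 0.965), before Niban2 (0.958 and 0.983) and Eif4h (0.951 and 0.966). Slc1a2 was closest to Cwc15 (0.946 and 0.965), Vsig10l (0.915 and 0.942) and Sde2 (0.899 and 0.873). Glul was closest to Actr10 (0.967 and 0.968), Rcor2 (0.944 and 0.949) and Nr2f6 (0.94 and 0.938), and S100b to Dmap1 (0.957 and 0.864), Elof1 (0.95 and 0.904) and Alkbh7 (0.936 and 0.853).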

How the data were processed

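Prefrontal cortex RNA of 9 rats was measured on 1 array each. The authors deposited log2 values of each probe set. Per the submitters' processing notes these were made by GCRMA (R 2.6.2), which normalizes between arrays and can so alter small differences; no source used here states its settings. Control probe sets (57 of 15923) were left out, as were the lowest 40% by mean. Genes were named from the platform annotation. limma 3.58.1 in R 4.3.3, checked on simulated data, fitted a slope per SD of each measure, two-sided, with Benjamini-Hochberg adjustment over 9520 probe sets. Correlations were tested over all 362880 pairings of 9 rats (5040 of 7), two-sided, in Python 3.11.15 (numpy 2.4.6, scipy 1.17.1, pandas 2.3.3), and are called exact. The number of arrays limits the precision. Genes were named by rule: all 8 genes, the 3 genes with the highest r with each, and up to 3 genes per list and measure by limma p, beside listed genes whose rats 8 and 9 lay outside the other 7 and single endothelial genes, both picked after their values were seen. The genes and lists were chosen with earlier results of these data known. Alternatives were the filter, quantile normalization, array weights, the probe set per gene and leaving out rats.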

Additional observations from a re-analysis of the deposited data

Results flagged for a closer look

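The Glul value of rat 3 on the main probe set (1367632_at) stood far from the others. At log2 12.93 it was the highest of the 9, and its gap to the next rat was 0.493 of the whole range, just above the limit for 9 samples. The 17 probe sets of the 8 genes were each looked at in this way, this was the 1 found, and chance gives about 1 in 20 groups.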

How the results depend on the processing

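No probe set passed an adjusted p of 0.05 for any of the 4 measures with 9 rats; without the filter on low values, 1 passed for startle, where 2458 had an unadjusted limma p under 0.05 against 1260 with it. The 32 slopes of the main probe sets were computed again under each alternative, which gave 444 values. Of these, 408 kept the direction of the slope and 36 reversed it, and 14 slopes kept it in all. None of these slopes had passed the threshold. In log2 per SD, the reversals without rats 8 and 9 were -0.02 for Aqp4 and -0.0013 for S100b on startle, -0.072 for Slc1a2 on locomotion, -0.022 for Slc1a3 on plus maze and -0.037 for Gfap on sugar feeding. With array quality weights they were -0.057 for Aqp4 and -0.14 for Slc1a2 on locomotion, and -0.052 for Gfap and 0.0092 for Glul on sugar feeding. With quantile normalization they were -0.0016 for Aqp4 and 0.0022 for S100b on locomotion, and 0.0039 for S100b on sugar feeding. The cause was not tested. Leaving out 1 rat at a time reversed 24 of 288 values. The slope then ranged from -0.022 to 0.16 for Aldoc on startle. On locomotion it ranged from -0.085 to 0.049 for Aqp4, -0.10 to 0.18 for Slc1a2, -0.12 to 0.046 for Glul and -0.083 to 0.061 for Aldoc. On plus maze it ranged from -0.078 to 0.19 for Slc1a2, -0.012 to 0.12 for Slc1a3, -0.008 to 0.086 for Gja1 and -0.087 to 0.0012 for Aldoc. On sugar feeding it ranged from -0.037 to 0.19 for Gfap, -0.14 to 0.28 for Slc1a2, -0.052 to 0.02 for Gja1, -0.062 to 0.049 for Glul, -0.043 to 0.0016 for S100b and -0.0054 to 0.11 for Aldoc. The median r over the 28 pairs, 0.267, was 0.239 with quantile normalization, 0.289 with the mean of all probe sets of a gene and 0.152 (without rat 3) to 0.343 (without rat 8) leaving out 1 rat. Under a filter at the 70th percentile Slc1a2 was not tested. Quantile normalization of the differences of rats 8 and 9, and leaving out rat 3 in pairs and lists, were chosen after seeing the data.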
